A study of Mus musculus with 4 samples.

Results

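The alpha- and beta-globin gene clusters were examined for peaks of Myb occupancy in MEL cells, a mouse erythroleukemia line held at an immature erythroid stage. Members were all listed peaks with a centre in one of 2 mm9 windows, chr11:32080000-32220000 for the alpha-globin genes and their upstream enhancers and chr7:110950000-111070000 for the beta-globin genes and their locus control region. The rule uses coordinates and no peak value. They held 12 of the 10737 peaks in both lists, 4 in the alpha-globin window and 8 in the beta-globin window. In all, 9 of the 12 came from the anti-Myb list and 3 from the anti-GFP list.

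Occupancy was measured by CUT&RUN, in which a nuclease tethered to an antibody cuts out the DNA beside a bound protein. The anti-Myb library was made from MEL cells, and the anti-GFP library from MEL cells labelled Myb-GFP, read here as cells with GFP-tagged Myb, which the labels do not spell out. Both were grown in the same medium, with no treatment named. The remaining 2 libraries of the series, anti-GFP in MEL and a library titled IgRab in MEL whose antibody field reads none, were not analysed here. No background from either therefore stands beside the values. Each group had 1 library, neither read depth nor peak height was known, and no difference between conditions could be tested. Whether the tagged cells are 1 clone is not given in the sources used here, and erythroid identity was not checked, since peaks carry no expression values.

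Hemoglobin is built from pairs of alpha-type and beta-type chains. Hba-a1 and Hba-a2 encode the adult alpha chains and Hba-x the embryonic zeta chain. Hbb-bt and Hbb-bs encode adult beta chains, and Hbb-bh1 and Hbb-y are expressed in embryonic red cells. In both clusters the genes depend on distant enhancers. Those of the alpha cluster lie upstream of Hba-x, partly in introns of the housekeeping gene Nprl3, and those of the beta cluster form the locus control region beyond Hbb-y. MYB is a transcription factor that keeps blood progenitors immature and dividing and falls as red cells mature. Globin genes are switched on strongly in the same maturation.

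The order of genes, though not their mm9 positions, was taken from the RefSeq gene table of GRCm38.p6. Along chromosome 11 it ran Il9r, Snrnp25, Rhbdf1, Mpg, Nprl3, Hba-x, Hba-a1, Hbq1b, Hba-a2, Hbq1a and, after a noncoding RNA gene, Sh3pxd2b. Along chromosome 7 it ran from olfactory receptor genes through Hbb-bt, Hbb-bs, Hbb-bh3, Hbb-bh2, Hbb-bh1 and Hbb-y into olfactory receptor genes again, with a further pseudogene, Gm15115, between Hbb-bs and Hbb-bh3. Peak positions are mm9 and the table is not, so no peak was assigned to a gene, promoter or enhancer.

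The promoters of the 3 adult genes that differ in sequence are shown because the windows were drawn around these genes. They show where the letters of the Myb core stand before each gene, and no peak is placed on them. Each run holds the 250 bases before the transcription start, 5′ to 3′ on the gene's strand, from RefSeq on GRCm38.p6. The Hba-a1 run lies at chr11:32283422-32283671 on the plus strand. The Hbb-bt run lies at chr7:103813924-103814173 and the Hbb-bs run at chr7:103827929-103828178, both on the minus strand. These positions cannot be set beside the mm9 positions of the peaks. Capitals mark AACNG, the core of the Myb recognition sequence, on either strand.
Hba-a1: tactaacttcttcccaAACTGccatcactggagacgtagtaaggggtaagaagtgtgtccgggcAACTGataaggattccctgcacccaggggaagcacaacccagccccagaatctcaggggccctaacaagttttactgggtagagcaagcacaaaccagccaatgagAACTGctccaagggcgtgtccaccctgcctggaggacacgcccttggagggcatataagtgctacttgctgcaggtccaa
Hbb-bt: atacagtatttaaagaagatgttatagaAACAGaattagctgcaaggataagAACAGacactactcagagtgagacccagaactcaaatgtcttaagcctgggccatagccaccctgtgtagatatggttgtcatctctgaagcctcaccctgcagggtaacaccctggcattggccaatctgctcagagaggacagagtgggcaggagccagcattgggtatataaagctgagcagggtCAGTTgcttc
Hbb-bs: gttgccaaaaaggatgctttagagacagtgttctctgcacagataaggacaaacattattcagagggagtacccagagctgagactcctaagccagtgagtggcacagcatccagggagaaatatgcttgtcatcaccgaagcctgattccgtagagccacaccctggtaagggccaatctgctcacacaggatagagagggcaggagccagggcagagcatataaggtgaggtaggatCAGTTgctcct

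The table held a promoter for 6 of the 7 globin genes, all but Hbb-bh1. In the 250 bases before the start, each of the 6 held AACNG, with 3 matches in Hba-a1, Hba-a2 and Hbb-bt and 1 in Hba-x, Hbb-bs and Hbb-y. In Hba-a1 the matches began 234, 186 and 80 bases before the start, and in Hbb-bt 222, 198 and 10 bases before it. Of all 32851 mouse promoters in the table, 74.2% held AACNG in the same stretch, with a median of 1 match, so the letters are common. CACCC, the box bound by KLF1 and related factors, was also in each of the 6, against 52.0% of all promoters. The related globin genes Hbq1a, Hbq1b and Hbb-bh2 held no CACCC in the same stretch. CCAAT was in 5 of the 6, all but Hba-x, against 33.8%. ATAAA, found in many core promoters, was in Hba-x, Hbb-bt and Hbb-y, against 37.3%. One of the Hbb-y matches began 157 bases before the start. Other TATA-like forms were not searched, and the Hba-a1 and Hbb-bs runs hold CATATAAG near their ends. AGATAA, one of the forms that GATA1 and related factors recognise, was in Hbb-bs alone of the 6, against 9.99% of all promoters. Among the related globin genes with a promoter, Hbb-bh2 held it too. Other forms were not searched, so this is not a count of promoters with GATA letters. One such form, TGATAA, stands in Hba-a1, Hba-a2, Hba-x and, on the other strand, Hbb-y. Both strands were searched for each motif, and none of the 35 matches to the searched letters overlapped another. In Hba-a1 and Hba-x the TGATAA, which was not searched, shares letters with a match to AACNG. Hba-a1 and Hba-a2 hold the same matches in one shared sequence, so the 6 promoters are not 6 separate sequences. A match is a description of letters and not of binding.

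The promoters of Hba-a1 and Hba-a2 could not be told apart by sequence. Over the 247 bases that align once the runs are shifted by 3, all 247 were the same. Hbb-bt and Hbb-bs shared 127 of 249 aligned bases (51.0%), and the other 13 pairs among the 6 promoters shared 30.6% to 34.4%. Reads that lie wholly within the 247 shared bases of Hba-a1 and Hba-a2 fit both copies equally well. How such reads were treated is not given in the sources used here, and whether it affected the peaks listed in the alpha-globin window was not tested.

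In the alpha-globin window the anti-Myb list held 4 peaks and the anti-GFP list held none. The first anti-Myb peak lay at chr11:32100095-32100407, 20.3 kb from the start of the window, and was row 964 of 3410 in its list. The second lay at chr11:32145793-32146105, 65.9 kb from the start, and was row 911. The other 2 lay close together, at chr11:32165035-32165347 in row 1419 and chr11:32167329-32167641 in row 2497, with centres 2.29 kb apart. The later part of the window, beyond 87.5 kb from its start, held no peak of either list.

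**Figure D1:**
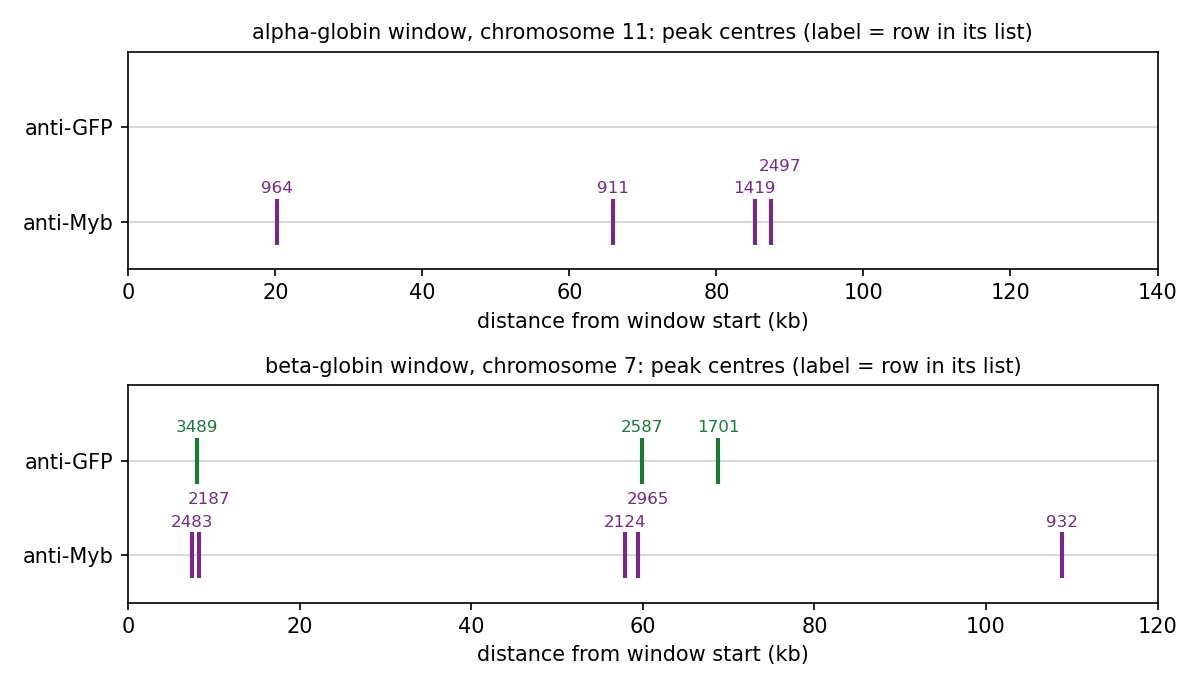
Peak centres in the alpha-globin window (top) and the beta-globin window (bottom), by distance from the window start in kb on the x axis, with 1 line per list and the row number of each peak in its list as a label. The alpha-globin window has 4 anti-Myb and no anti-GFP peaks. The beta-globin window has 5 anti-Myb and 3 anti-GFP peaks, of which 7 fall in 2 groups.

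A count of 4 anti-Myb peaks was high for chromosome 11 and a count of 0 anti-GFP peaks was not low. A 140 kb window moved along the chromosome in steps of 10 kb held a mean of 0.356 anti-Myb peaks, and 1.23% of the 11812 windows held at least 4. Of the windows that did not touch the alpha-globin window, 138 did so, at 17 separate places, with overlapping windows counted as 1 place. The mean for anti-GFP was 0.760 peaks, and 61% of windows held none. A count of 0 was thus the most frequent one for a stretch of this length. In the first 50% of rows 3 of the 4 anti-Myb peaks were left, and 0.737% of windows held at least that many, whereas in the first 25% none was left. Among the windows with at least 1 peak of either list, 10.3% held no anti-GFP peak and 2.82% held at least 4 anti-Myb peaks.

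The anti-Myb and anti-GFP counts were also compared within each window. An excess of at least 4 anti-Myb over anti-GFP peaks was found in 0.152% of windows. Such windows hold at least 4 anti-Myb peaks by definition, so their share could not exceed 1.23%. Away from the alpha-globin window the excess occurred in 11 windows, at 2 places. Of the 145 windows with at least 4 anti-Myb peaks, 12.4% held no anti-GFP peak, with windows that touch the alpha-globin window included. The 138 that did not touch it held a median of 3 anti-GFP peaks, and 11 of them held none. These shares are descriptions of 1 chromosome in 1 pair of lists, since overlapping windows repeat the same peaks.

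**Figure D2:**
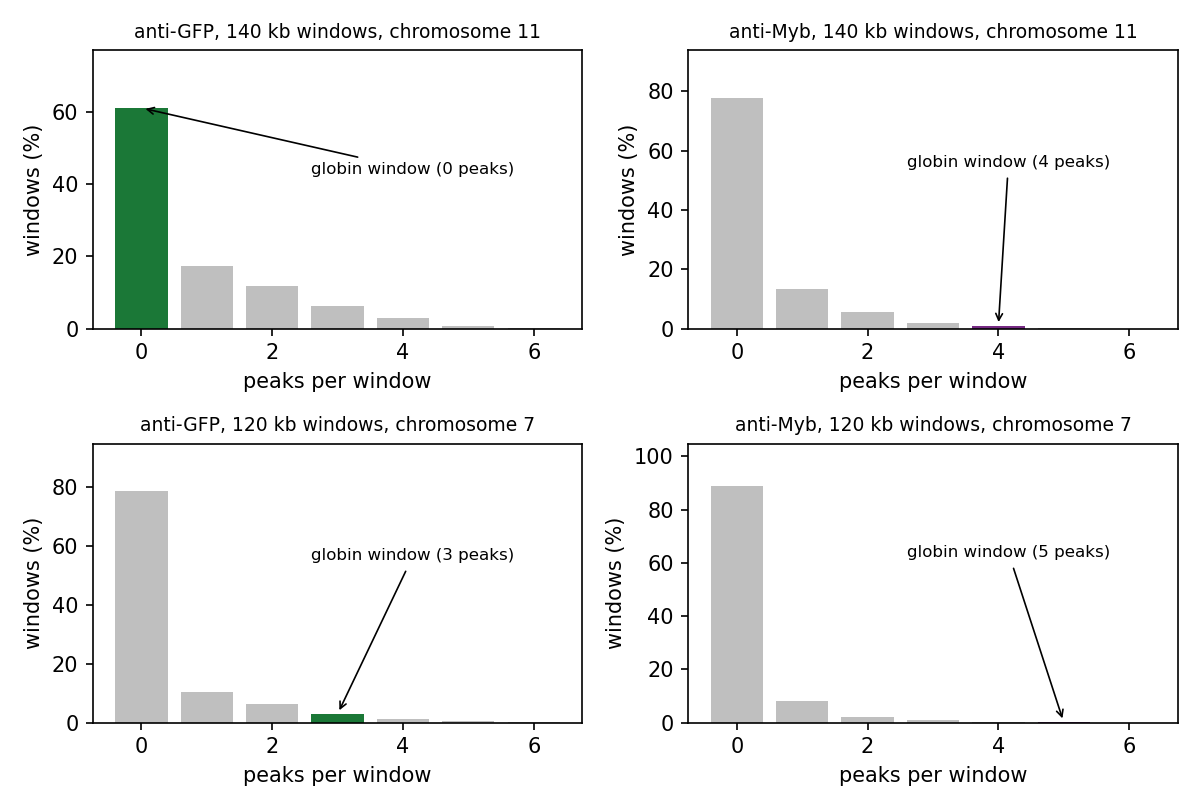
Number of peaks per window (x axis) against the percent of same-width windows of the same chromosome (y axis), for each list and locus, with the bar that holds the globin window coloured and marked by an arrow. The alpha-globin window sits in the tallest anti-GFP bar at 0 peaks, whereas its 4 anti-Myb peaks and the 5 of the beta-globin window sit in the thin right tails.

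The alpha-globin window fell in a long stretch without anti-GFP peaks. The nearest on the left was chr11:31770885-31771221 (row 2501 of 7327), 309 kb before the window. The nearest on the right was chr11:32249381-32249717 (row 2182), 29.5 kb past its end. The resulting stretch of 478 kb without an anti-GFP centre was one of 48 at least as long among the 646 gaps of chromosome 11 (7.43%). Such long gaps together made up 56.7% of the distance between the outermost anti-GFP centres of that chromosome. In the anti-Myb list, the nearest peak on the left was chr11:31770364-31770676 (row 3303), 309 kb before the window. The nearest on the right was chr11:32648865-32649177 (row 2791), 429 kb past its end. The median gap between neighbouring anti-Myb centres on chromosome 11 was 111 kb, and the share of gaps as long was not counted. The 4 anti-Myb centres of the window spanned 67.2 kb. Of the 298 runs of 4 consecutive anti-Myb peaks on chromosome 11, 14 (4.70%) were at least as tight, against a median run of 632 kb.

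The beta-globin window held peaks of both lists. The anti-Myb peaks were chr7:110957284-110957596 (row 2483), chr7:110958066-110958378 (row 2187), chr7:111007726-111008038 (row 2124), chr7:111009284-111009596 (row 2965) and chr7:111058697-111059009 (row 932). The anti-GFP peaks were chr7:110957870-110958206 (row 3489), chr7:111009786-111010122 (row 2587) and chr7:111018638-111018974 (row 1701). Of these 8 peaks, 7 fell into 2 groups and the last anti-Myb peak stood alone.

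The first group lay near the start of the window, the side where Hbb-bt and Hbb-bs stand in the GRCm38.p6 gene order. It held 2 anti-Myb peaks and 1 anti-GFP peak with centres within 0.782 kb. The anti-GFP peak lay between the anti-Myb peaks, its centre 598 bp from one and 184 bp from the other, and it overlapped the latter by 141 bp.

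The second group followed after 49.7 kb without a peak, in the middle of the window, and held 2 peaks of each list over 10.9 kb. From the start of the window its centres stood at 57.9 kb (anti-Myb), 59.4 kb (anti-Myb), 60.0 kb (anti-GFP) and 68.8 kb (anti-GFP). The middle pair, one from each list, had centres 514 bp apart and did not overlap. The single anti-Myb peak at 109 kb from the start lay 40.0 kb from any other listed peak.

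Both counts were high for chromosome 7 when all rows were used. A 120 kb window there held a mean of 0.397 anti-GFP and 0.160 anti-Myb peaks, and 78.6% and 88.7% of the 14757 windows held none. At least 3 anti-GFP peaks were found in 4.73% of windows and at least 5 anti-Myb peaks in 0.115%. Away from the beta-globin window, 5 or more anti-Myb peaks occurred in 16 windows at 2 places, whereas 3 or more anti-GFP peaks occurred at 60 places. In 0.102% of windows both counts were reached. Among the windows with at least 1 peak of either list, the shares were 19.3% for anti-GFP and 0.471% for anti-Myb. With the edges drawn in by 10 kb, which leaves out the group near the start, the beta-globin window held 3 anti-Myb and 2 anti-GFP peaks. In the first 50% of rows of each list 1 of the 5 anti-Myb peaks was left, and 5.83% of windows held at least that many, so the high anti-Myb count rests on peaks of the later rows. An excess of at least 2 anti-Myb over anti-GFP peaks was found in 0.562%, and away from the beta-globin window at 12 places.

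No other peak was listed within 182 kb of the beta-globin window. The median gap between neighbouring centres on chromosome 7 was 53.6 kb for anti-GFP and 168 kb for anti-Myb. The share of gaps as long as those beside the window was not counted. To the left, the nearest anti-GFP peak was chr7:109415764-109416100 (row 1352), 1534 kb before the window, and the nearest anti-Myb peak chr7:109522083-109522395 (row 3031), 1428 kb before it. To the right, the distances past the end of the window were 182 kb for chr7:111252191-111252527 (anti-GFP, row 6365) and 431 kb for chr7:111501340-111501652 (anti-Myb, row 1135). The 5 anti-Myb centres spanned 101 kb. Of the 194 runs of 5 consecutive anti-Myb peaks on chromosome 7, 4 (2.06%) were at least as tight, and the median run was 1561 kb. The 3 anti-GFP centres spanned 60.8 kb, a less unusual tightness reached by 94 of 490 runs of 3 (19.2%).

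Partners in the other list were counted for each locus, and the loci were not tested against each other. In the alpha-globin window 0 of 4 anti-Myb peaks overlapped an anti-GFP peak (exact 95% Clopper-Pearson interval 0% to 60.2%), against 18.3% of the 301 anti-Myb peaks of chromosome 11. This interval includes the value of the chromosome, but it counts the 4 peaks as independent, which they are not. No conclusion is drawn from it. None of the 4 had an anti-GFP centre within 10 kb, where 47.2% of the anti-Myb peaks of chromosome 11 had one. The distances to the nearest anti-GFP centre were 149 kb, 104 kb, 84.4 kb and 82.1 kb in order of position. Of the anti-Myb peaks of chromosome 11, 3.99% lay at least as far from an anti-GFP centre as the first of these and 16.9% as far as the last. All 4 distances are to the same anti-GFP peak, chr11:32249381-32249717, so they are 1 observation rather than 4.

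In the beta-globin window 1 of 5 anti-Myb peaks overlapped an anti-GFP peak (20%, exact interval 0.505% to 71.6%), close to the 17.2% of chromosome 7. Within 1 kb the count was 3 of 5, against 35.9%, and within 10 kb it was 4 of 5, against 56.6%. Of the 3 anti-GFP peaks, 1 overlapped an anti-Myb peak (exact interval 0.840% to 90.6%), against 6.91% of the 492 anti-GFP peaks of chromosome 7. An anti-Myb centre lay within 1 kb of 2 of them (9.43% to 99.2%), against 15%, and within 10 kb of all 3 (29.2% to 100%), against 24.2%. The first 2 of these intervals include the value of the chromosome and the last does not, but the peaks lie in 2 groups and are not independent. The last 2 anti-GFP peaks have the same nearest anti-Myb peak, and for the last it lies 9.37 kb away, near the 10 kb limit. No conclusion is drawn from these intervals.

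**Figure D3:**
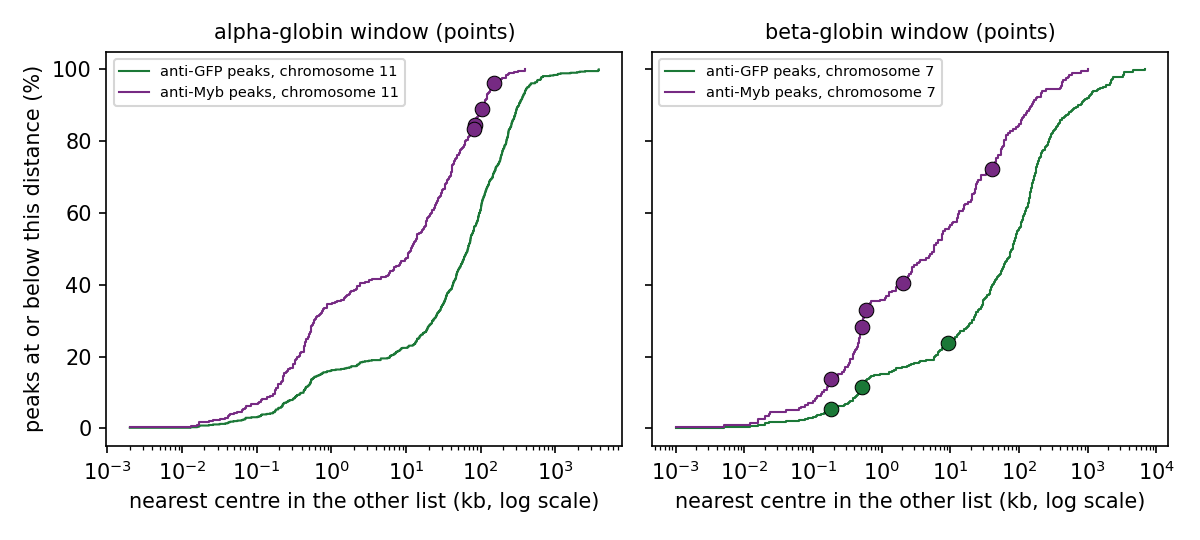
Distance from each globin peak to the nearest centre of the other list (points, x axis in kb on a log scale) on the cumulative curve of all peaks of the same list and chromosome (y axis, percent). The alpha-globin points lie at the upper end of the anti-Myb curve, between 82.1 and 149 kb. Of the beta-globin points, 7 of 8 lie below 10 kb and the other is at 40.0 kb.

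None of the 12 peaks was among the first rows of its list, and the meaning of the row order is not given in the sources used here. The 3 anti-GFP peaks stood 23.2%, 35.3% and 47.6% of the way down their list of 7327. The 4 alpha-globin anti-Myb peaks stood between 26.7% and 73.2%, with a median of 34.9%. The 5 beta-globin anti-Myb peaks stood between 27.3% and 87.0%, with a median of 64.1%, and 4 of them were in the last 50% of the list. The earliest of these 5 was the solitary peak with no anti-GFP centre within 10 kb.

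The overlapping pair did not stand early in either list. Its peaks were at 47.6% of the anti-GFP list and 64.1% of the anti-Myb list. Single rows carry limited order, because rows of one chromosome came in runs. In the last 50% of the anti-Myb list 67.5% of rows were followed by a row of the same chromosome, against 36.7% in the first 50%. Row 2497, for example, stood in a run of 9 chromosome 11 rows, from 2494 to 2502.

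**Figure D4:**
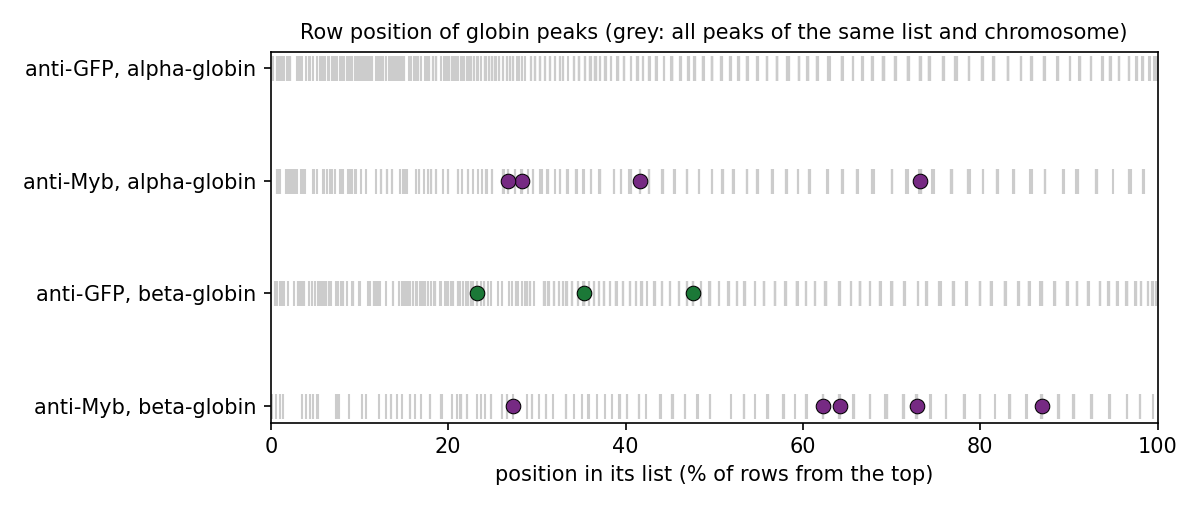
Position of each globin peak in its list, as percent of rows from the top (x axis), with coloured points for globin peaks and grey marks for all peaks of the same list and chromosome. The anti-GFP points lie between 23.2% and 47.6%, the anti-Myb points between 26.7% and 87.0%, and no point lies further to the left.

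Across both windows the anti-Myb list supplied 9 of 12 peaks (75%, exact interval 42.8% to 94.5%). On chromosomes 7 and 11 together it supplied 499 of 1638 (30.5%), and in the whole series 3410 of 10737 (31.8%). The interval counts peaks as independent, which grouped peaks are not, and no depth was available to put the lists on one scale.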

How the data were processed

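The deposited lists used were one with 7327 peaks of 337 bp (anti-GFP, Myb-GFP MEL cells) and one with 3410 peaks of 313 bp (anti-Myb, MEL cells). Per the submitters' processing notes, HOMER 4.10.3, STAR 2.7.9a, deepTools 3.4.2, Picard 2.17.11, Trim Galore 0.6.6 and SAMtools 1.11 were used, with build mm9. Their roles, the peak threshold, the control and the handling of duplicates and of reads matching several places were not stated in labels or headers (not given in the sources used here). Each decides which peaks are listed. All peaks have the same deposited score, 1, which tells nothing of height. Row positions are given as found in the files and are not read as height or strength. Read depth is unknown. Printed intervals cover the counting of peaks only.

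Peaks were taken by centre, with coordinates printed 1-based. Overlap meant at least 1 bp. Background windows had the width of the locus and moved in steps of 10 kb between the outermost peaks of a chromosome. Groups were peaks of either list with neighbouring centres at most 10 kb apart. Python 3.11.15, NumPy 2.4.6, pandas 2.3.3, SciPy 1.17.1 and Matplotlib 3.10.9 were used. Counting of windows and partners was checked on simulated lists. All 12 peaks are named, by the rule for up to 20, with the nearest peaks outside each window. Motifs were searched in RefSeq promoters of GRCm38.p6. The related genes on the list were Hbq1a, Hbq1b, Hbb-bh0, Hbb-bh2, Hbb-bh3 and Ahsp, used for promoters and gene order only. The loci, lists and alternatives were chosen with earlier results of these data known. No test was made.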

Additional observations from a re-analysis of the deposited data

How the results depend on the processing

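Most shares moved with the definition of the window, by a strict rule given below. That rule uses an interval that counts overlapping windows as independent. Counts had a looser rule, within 1.5 times, so shares and counts are not compared. With edges out by 50 kb the alpha-globin window gained 1 anti-GFP peak. With edges in by 10 kb the beta-globin window kept 3 anti-Myb peaks. In the first 50% of rows it kept 1, and in the first 25% it kept 0 anti-Myb and 1 anti-GFP peak, while the alpha-globin window kept 0 anti-Myb peaks. The share of windows with no anti-GFP peak (alpha-globin width) was 58.4%, 49.7% and 63.9% with edges out by 10 kb, out by 50 kb and in by 10 kb. It was 10.3% among windows with at least 1 peak of either list, 77.3% over chromosomes 1 to 19 and X (chosen after seeing the data), and 74.8% and 84.6% in the first 50% and 25% of rows. The share with at least as many anti-Myb peaks as the alpha-globin window was, in the same order, 1.57%, 3.34%, 0.897%, 2.82%, 0.425% and, for the first 50% of rows, 0.737%. For anti-GFP at the beta-globin window the 7 values were 6.16%, 11.6%, 9.19%, 19.3%, 3.31%, 1.89% and 6.57%. For anti-Myb there it was 0.529% with edges out by 50 kb, 0.813% in by 10 kb, 0.471% among windows with a peak and 5.83% in the first 50% of rows. With no anti-Myb peak left in the first 25% of rows at either locus, no share was computed. The overlapping beta-globin pair was lost (0 anti-GFP and 0 anti-Myb peaks with a partner) when overlap had to reach 50% of the shorter peak, with centres within 100 bp, and in the first 50% of rows. Within 1 kb, 2 anti-GFP and 3 anti-Myb peaks had a partner, and within 10 kb 3 and 4. The other 36 values, among them steps of one window width and the motif counts before the start alone, stayed within their interval or within 1.5 times the reported count. The 4 alpha-globin anti-Myb peaks had no partner under any of the 5 definitions. This outcome was fixed, since the widest definition was 10 kb and the nearest anti-GFP centre lay at least 82.1 kb away. No paired analysis was possible because each group had 1 library. Without read counts, the lack of a listed peak at a locus does not show that Myb was absent there.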
